A study of Mus musculus with 24 samples.

Results

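Transcripts of 30 genes of cholesterol and fatty acid synthesis were followed over 4 days in mouse bone-marrow-derived dendritic cells. The genes were taken by symbol from the authors' annotation, with a mean raw count of at least 10 as the condition, and all 30 were found among the 55487 genes of the count table. Their mean counts ran from 38.3 for Me1 to 16372 for Scd2, so no gene lay near the condition. All 30 also passed the filter on low counts and were among the 14535 genes tested. By role, 8 genes act in the mevalonate part of the pathway, 11 carry squalene to cholesterol, 3 regulate or transport sterol, and 8 belong to fatty acid synthesis.

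Bone marrow of mice aged 8 to 10 weeks, of both sexes, was grown in medium with GM-CSF, the cytokine that drives marrow progenitors towards dendritic cells, supplied as supernatant of transfected J558 cells. All mice carried floxed alleles of Arpc4, whose product belongs to the Arp2/3 complex, the machine that starts branched actin filaments. WT mice had the genotype ARPC4 Flox/Flox CD11c-Cre -/- and KO mice ARPC4 Flox/Flox CD11c-Cre +/-, with Cre driven by the promoter of CD11c, so that deletion depends on CD11c expression and cells that lack it are not targeted. Cells were replated on days 4 and 7, and the suspension cells were taken on days 7, 8, 9 and 10, with 3 mice per genotype and day. The WT mice carried the numbers 63, 65 and 66 and the KO mice 64, 67 and 68, and values below are given in that order. The 24 libraries thus came from 6 numbered mice, so by the labels libraries of different days share mice. The design asks how the course of differentiation compares between control and KO cells.

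Cholesterol is assembled from acetyl-CoA, first to mevalonate and isoprenoids, then to squalene, lanosterol and cholesterol. SREBP-2, the product of Srebf2, is a membrane-bound transcription factor that is held in the endoplasmic reticulum by Insig proteins when sterol is plentiful, and that is cut and released to activate genes of the whole pathway when sterol is scarce. A related factor, SREBP-1, acts mainly on fatty acid genes such as Fasn and Scd1. Membrane lipids are part of antigen presentation and migration in dendritic cells, and fatty acid synthesis has been studied in their growth from bone marrow.

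Totals were 19952047 to 31049798 counts per library. The targeted Arpc4 stood at 188 to 270 CPM (reads scaled to a common library size with TMM factors) in the 12 WT libraries and at 155 to 231 CPM in the 12 KO libraries, and was lower in KO without overlap on each of the 4 days. Of the markers of the labelled cell type, Itgax, which encodes CD11c, stood at 750 to 1661 CPM and Cd74 at 778 to 4040 CPM, while Zbtb46 (2.15 to 23.7 CPM) and Flt3 (0.762 to 6.70 CPM) were low. Ddx3y, a gene of the Y chromosome, was high in 1 library of each group. Xist, a transcript of the inactive X chromosome, was at most 0.427 CPM in these libraries and at least 496 CPM in the others. By these transcripts the former came from males and the latter from females. In WT the library with high Ddx3y was number 63 on every day. In KO, going from day 7 to day 10, it was number 64, 68, 64 and then 67, so the KO numbers did not follow Ddx3y. The KO library with high Ddx3y was the lowest of the 3 KO libraries for 16, 22, 28 and 27 of the 30 genes over the same course. The WT library with high Ddx3y was the lowest of its group for 8, 10, 5 and 3 genes on the same days. Counts without these KO libraries are given beside the results they touch.

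RefSeq promoter windows on GRCm38.p6, of 250 bases before to 50 after a start, matched 24 of the 30 genes with 28 windows. They are shown because most of the 30 genes rose from day 7 to day 10, and they were searched on both strands for letters known from promoters that SREBP binds. CCAAT, the box bound by NF-Y, a partner of SREBP, was found in 21 of the 28 windows, or in 21 of the 24 genes, and in 37.4% of all 32851 windows. GGGCGG, a box bound by Sp1, was in 20 of the 28 windows and in 35.7% of all. TCACNCCAC, a loose form of the sterol regulatory element, was in the window of Hmgcs1 and of no other matched gene, and in 1.24% of all windows. The stricter classical sterol regulatory element (0.0913% of all windows) and the palindrome TCACGTGA (0.974%) were in none of the 28. Every match of the classical element holds a match of TCACNCCAC, and no other pair of these motifs was counted together. A match describes letters in a window, and no binding was measured here.

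The 5 windows below run 5′ to 3′ along the gene. They belong to Hmgcs1, Hsd17b7, Fasn and Insig1, which rose in WT, and to Acss2, which fell. Capitals mark TCACNCCAC, CCAAT or its reverse complement ATTGG, while GGGCGG is left in lower case. The Hmgcs1 window is at chr13:119690101-119690400 on the forward strand, Hsd17b7 at chr1:169969156-169969455 on the reverse strand, Fasn at chr11:120824498-120824797 on the reverse strand, Insig1 at chr5:28071162-28071461 on the forward strand and Acss2 at chr2:155517793-155518092 on the forward strand.
Hmgcs1: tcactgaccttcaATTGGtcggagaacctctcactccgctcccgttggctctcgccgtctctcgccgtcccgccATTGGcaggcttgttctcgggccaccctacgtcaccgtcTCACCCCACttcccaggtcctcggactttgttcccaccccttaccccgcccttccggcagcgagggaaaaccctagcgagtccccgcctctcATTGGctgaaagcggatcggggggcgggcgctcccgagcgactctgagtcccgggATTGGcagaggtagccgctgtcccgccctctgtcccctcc
Hsd17b7: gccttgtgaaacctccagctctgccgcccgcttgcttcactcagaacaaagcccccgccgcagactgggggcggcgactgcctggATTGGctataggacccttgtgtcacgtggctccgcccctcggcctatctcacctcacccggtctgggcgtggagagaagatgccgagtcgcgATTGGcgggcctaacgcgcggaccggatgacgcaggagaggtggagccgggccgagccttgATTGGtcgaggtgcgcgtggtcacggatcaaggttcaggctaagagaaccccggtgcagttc
Fasn: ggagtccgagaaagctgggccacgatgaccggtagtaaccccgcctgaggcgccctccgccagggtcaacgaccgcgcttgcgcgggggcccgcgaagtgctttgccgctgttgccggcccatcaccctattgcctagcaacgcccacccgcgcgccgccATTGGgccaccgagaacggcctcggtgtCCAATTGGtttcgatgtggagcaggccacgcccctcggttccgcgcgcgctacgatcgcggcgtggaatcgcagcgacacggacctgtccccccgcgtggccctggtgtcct
Insig1: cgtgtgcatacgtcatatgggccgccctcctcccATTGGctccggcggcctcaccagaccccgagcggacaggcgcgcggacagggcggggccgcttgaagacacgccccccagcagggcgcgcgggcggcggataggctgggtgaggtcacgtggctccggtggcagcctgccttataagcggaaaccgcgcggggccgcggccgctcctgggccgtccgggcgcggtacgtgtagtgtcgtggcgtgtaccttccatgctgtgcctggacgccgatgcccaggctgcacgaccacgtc
Acss2: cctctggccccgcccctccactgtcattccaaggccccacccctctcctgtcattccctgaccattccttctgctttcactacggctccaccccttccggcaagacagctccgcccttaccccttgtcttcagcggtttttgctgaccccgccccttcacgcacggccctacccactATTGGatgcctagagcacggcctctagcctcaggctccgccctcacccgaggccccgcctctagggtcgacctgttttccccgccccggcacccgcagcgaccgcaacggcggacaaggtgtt
Hmgcs1 holds the TCACCCCAC match, which starts 137 bases before the start, and 4 matches of CCAAT. Hsd17b7 and Fasn hold 3 matches of CCAAT each, and in Fasn a pair of them shares bases in opposite directions. Insig1 and Acss2 hold 1 match each.

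Between day 7 and day 10 most of the synthesis genes rose in WT cells. By edgeR's quasi-likelihood test with Benjamini-Hochberg adjustment over all genes tested, 25 of the 30 rose and 1, Acss2, fell at an adjusted p under 0.05. Over all genes tested 37% were called, with 18.9% higher and 18.1% lower. The median log2 fold change was 0.87 over the 30 genes and -0.02 over all genes. In 26 genes every day 10 library was above every day 7 library, and in 2 every one was below, where 25% of all genes tested were higher and 26.7% lower without overlap. In KO cells 22 genes rose and 1, again Acss2, fell, where 36.8% of all genes were called, 19.7% higher and 17.1% lower. The KO median was 0.60 against 0.00 over all genes, and 19 genes were higher and 1 lower without overlap, against 22.4% higher and 20.7% lower of all genes. Without the KO libraries with high Ddx3y the counts were 26 rising and 1 falling in WT, whose fit shares its spread with KO, and 25 rising and 0 falling in KO, with 41.3% and 35.9% of all genes called. The KO count was 14 without mouse 64, 16 without mouse 68 and 27 without mouse 67, where 21.9%, 24.8% and 39.6% of all genes were called. Since the KO numbers did not follow Ddx3y, leaving out a KO number, here and below, did not leave out the same animal on every day.

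**Figure D1:**
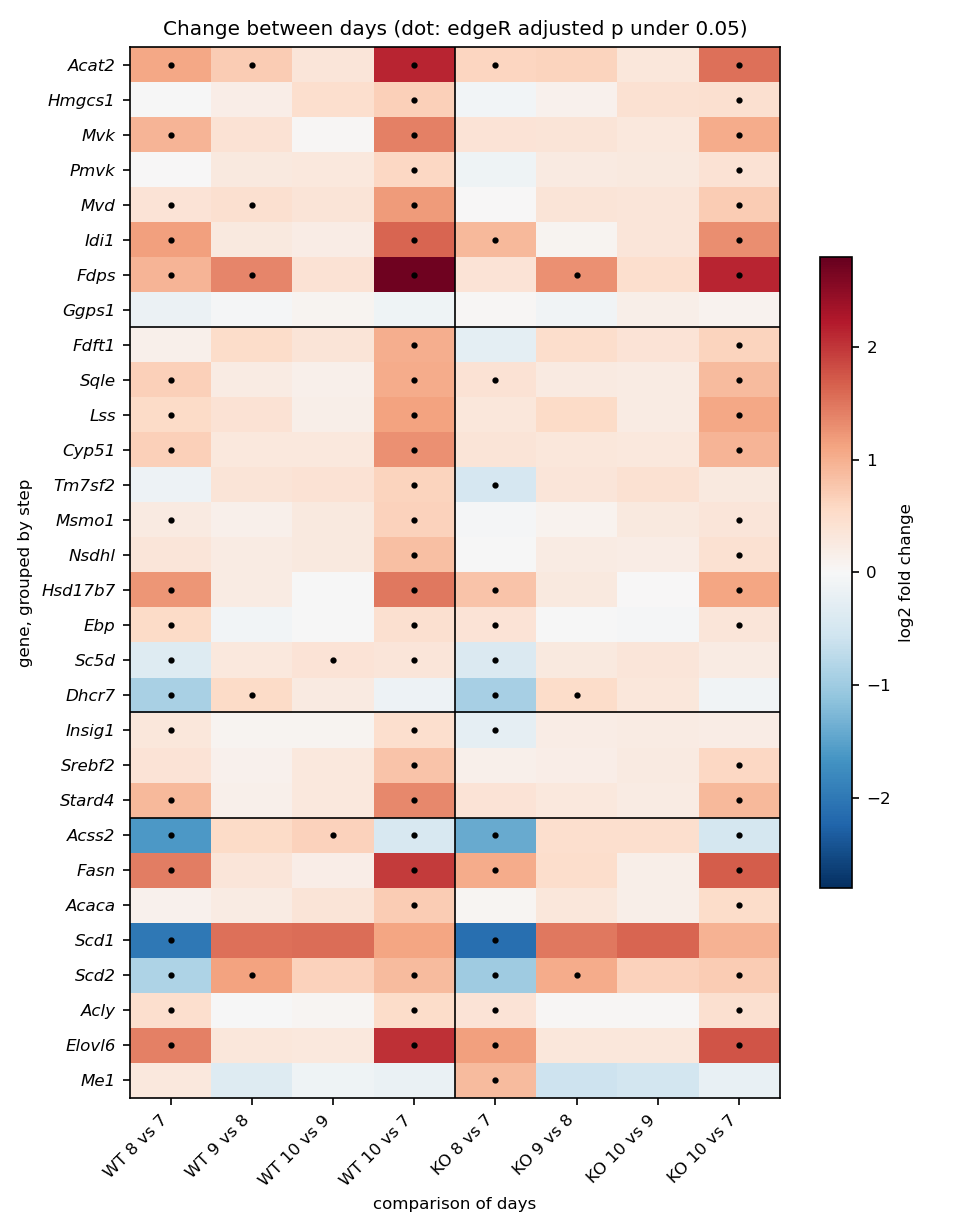
Log2 fold change of each gene (vertical axis, grouped by step) between days (horizontal axis) in WT and KO, with red for higher and blue for lower on the later day and a dot where the edgeR adjusted p was under 0.05. Fdps has the darkest red in WT (2.72), Scd1 and Acss2 are blue for day 8 against day 7 in both genotypes, and Ggps1 stays pale.

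Several marker lists moved over the same days. The summed level of 15 cycling-cell markers had a median of 380 CPM on day 7 and 1463 CPM on day 10 in WT, and of 497 and 1514 CPM in KO, and 14 of the 15 rose in each genotype. The summed level of 10 dendritic cell markers ran from 4843 to 5805 CPM on day 7 and from 8948 to 11091 CPM on day 10 in WT, and 7 of the 10 rose. Of 9 macrophage markers 6 fell in WT and 7 in KO, and their WT sum had a median of 5029 CPM on day 7. Of 9 granulocyte markers 4 rose and 2 fell in WT, and 0 rose and 2 fell in KO. Markers of B, T, NK and erythroid cells summed to 1 to 5 CPM in every group, and Hbb-bs was at 0 in 20 libraries and Ncr1 in 13. The part of these shifts in the change of the synthesis genes was not tested. In bulk cells, fewer cells of a type and less RNA per cell cannot be told apart.

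The mevalonate part rose almost throughout, with 7 of its 8 genes called higher in WT and the same number in KO. Acat2, the cytosolic thiolase that joins acetyl-CoA units, stood at 5.98, 5.62 and 6.20 CPM in WT on day 7 and at 25.8, 23.6 and 28.6 CPM on day 10. Its KO values were 6.43, 9.00 and 7.54 CPM on day 7 and 26.5, 17.8 and 22.97 CPM on day 10. The days did not overlap in either genotype. The log2 fold change was 2.13 ± 0.20 (SE) in WT and 1.55 ± 0.20 in KO, with edgeR adjusted p of 2.47e-07 and 6.71e-06. Acat2 is 97.7% identical to Acat3 over 1477 bases, and Acat3 had 1.37% of its counts. Its transcripts also match those of Tcp1 in opposite direction over 445 bases at 98.65% identity, and Tcp1 had 1200% of its counts, and the strand setting of the counting is not given in the sources used here.

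Hmgcs1, which makes HMG-CoA, moved late. In WT its level was 100.4, 92.9 and 89.1 CPM on day 7, 88.0, 92.2 and 102 CPM on day 8, and 164, 130 and 152 CPM on day 10. KO values were 85.7, 87.4 and 86.1 CPM on day 7 and 140, 95.3 and 121 CPM on day 10. Days 7 and 8 overlapped, while day 10 lay above day 7 in both genotypes. The rise from day 7 to day 10 was 0.66 ± 0.14 (log2 ± SE, edgeR adjusted p 0.00118) in WT and 0.46 ± 0.14 (edgeR adjusted p 0.0164) in KO. The KO call was lost without mouse 64 (log2 0.32, adjusted p 0.147 by edgeR) and without mouse 68 (0.44, adjusted p 0.0769).

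Mvd, the decarboxylase that makes isopentenyl diphosphate, stood at 42.3, 39.0 and 41.1 CPM in WT on day 7 and at 91.0, 83.5 and 107 CPM on day 10. In KO it went from 40.6, 51.7 and 51.4 CPM to 76.0, 69.1 and 88.7 CPM. All day 10 libraries were above all day 7 libraries of the same genotype. The log2 fold changes were 1.20 ± 0.13 and 0.70 ± 0.12 (SE), with edgeR adjusted p of 8.44e-07 and 2.14e-04. Mvk, mevalonate kinase, and Idi1, the isomerase of the isoprenoid unit, rose in both genotypes by 1.41 and 1.63 (log2) in WT and by 1.03 and 1.31 in KO. The KO call of Idi1 was lost without mouse 64 (edgeR adjusted p 0.0835). Counts of Idi1 are uncertain, because the processed pseudogene Gm13502, with 1.05% of its counts, is identical to it over 684 bases. Pmvk rose by 0.59 in WT and 0.41 in KO, and its KO call was lost with the mouse as a replicate block (edgeR adjusted p 0.055), and without mouse 64 (0.407), 68 (0.187), 63 (0.0652) or 66 (0.0529), and its WT call without mouse 66 (0.1).

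Fdps, which builds farnesyl diphosphate, had the largest fold change of the 30 genes from day 7 to day 10 in both genotypes but a low level. It stood at 1.16, 1.40 and 1.28 CPM in WT on day 7 and at 8.79, 8.31 and 8.31 CPM on day 10. KO libraries stood at 1.52, 2.19 and 1.46 CPM and then at 9.07, 4.74 and 8.82 CPM. WT rose by 2.72 ± 0.29 (log2 ± SE, edgeR adjusted p 8.46e-07) and KO by 2.13 ± 0.28 (8.01e-06). Per length the level was 0.81 TPM in WT on day 7 and 6.51 TPM on day 10, the lowest of the 30 genes on day 7. Its counts are uncertain, because Gm43738 on the same strand is identical over 929 bases and was listed with a total of 0 counts, and 4 processed pseudogenes are 96.14% to 98.87% identical. Ggps1, which makes the geranylgeranyl diphosphate used to anchor small GTPases, was the exception of this group: it stood at 18.1 to 24.7 CPM over all WT libraries and 18.04 to 24.3 CPM over all KO libraries, and was called between no pair of days compared. Its counts are uncertain too, since Arid4b on the other strand overlaps it and had 161% of its counts.

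**Figure D2:**
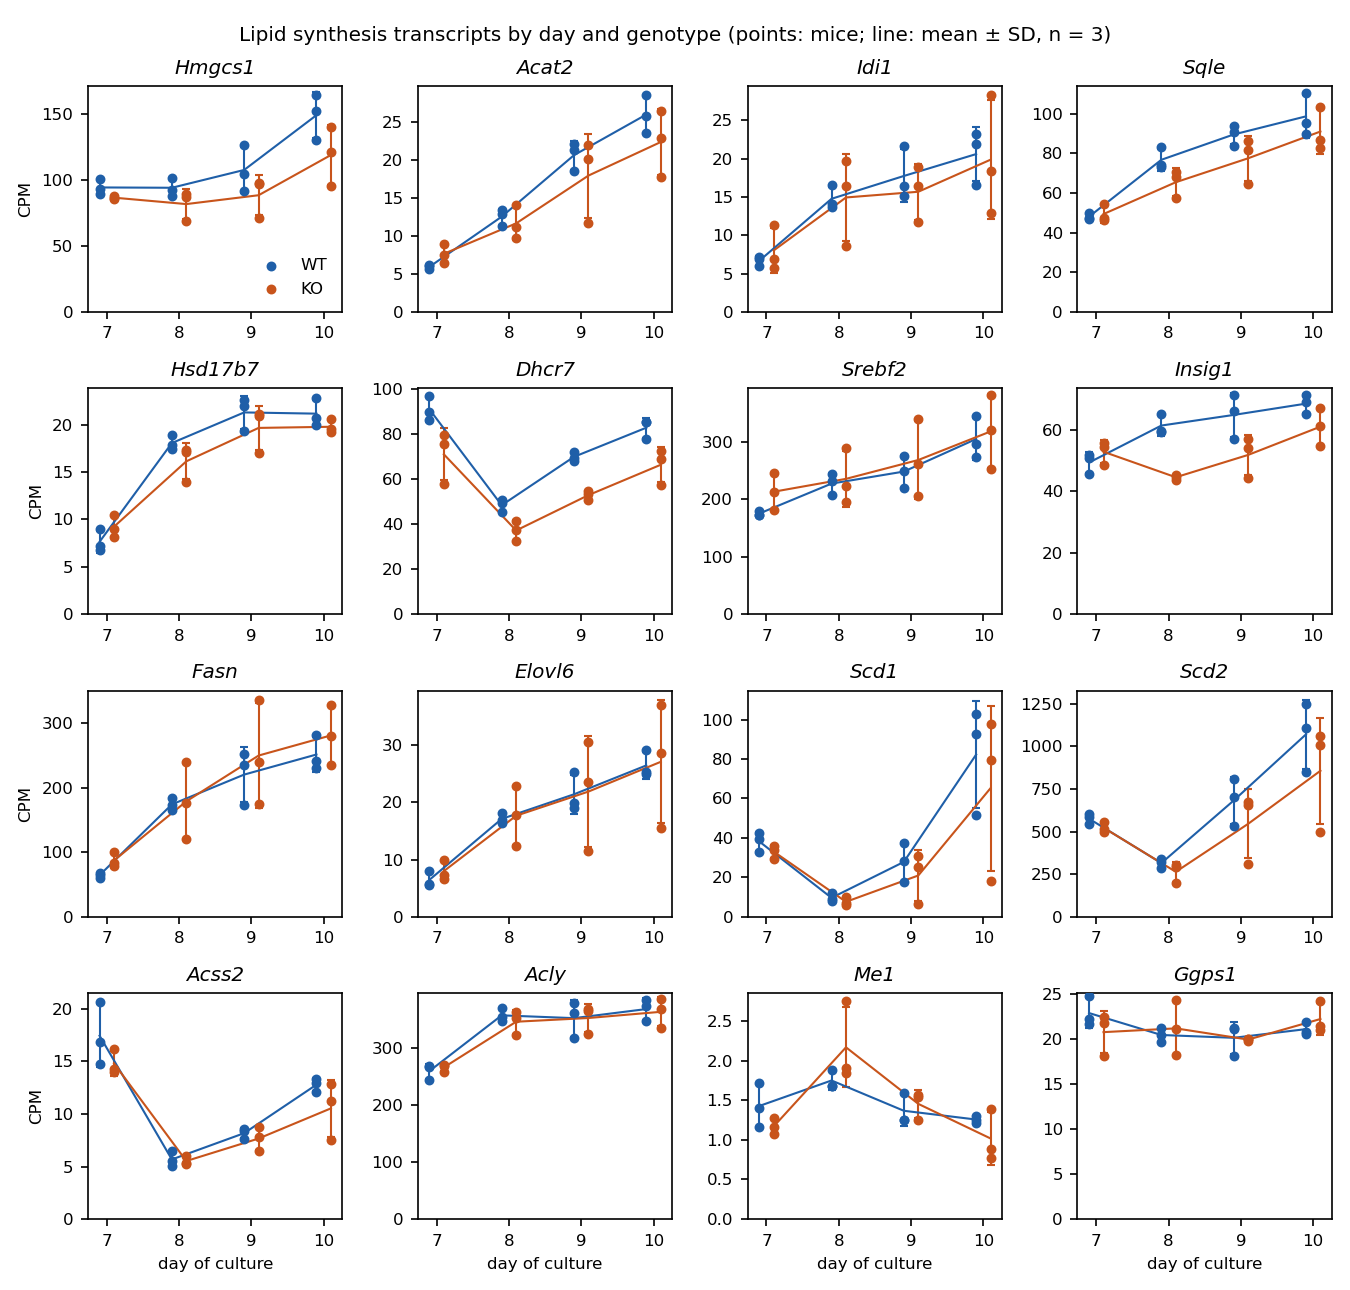
Level in CPM (vertical axes, from 0) of 16 of the 30 genes by day of culture in WT (blue) and KO (orange); each point is 1 mouse, and lines join means with SD bars (n = 3). Acat2, Sqle and Fasn climb from day 7, Scd1, Scd2, Acss2 and Dhcr7 are lowest on day 8, and the KO points of Dhcr7 lie below the WT points on every day.

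On the way from squalene to cholesterol 10 of the 11 genes rose in WT from day 7 to day 10 and 8 in KO. Sqle, the squalene epoxidase and a control point of the pathway, stood at 47.4, 47.1 and 49.6 CPM in WT on day 7, at 73.2, 73.9 and 83.1 CPM on day 8 and at 95.4, 89.8 and 111 CPM on day 10. The KO values lay at 47.1, 54.4 and 46.5 CPM on day 7, at 67.8, 70.8 and 57.6 CPM on day 8 and at 104, 82.5 and 86.9 CPM on day 10. Neither later day overlapped day 7. The log2 fold change to day 10 was 1.04 ± 0.11 in WT and 0.88 ± 0.11 in KO (SE, edgeR adjusted p 1.06e-06 and 5.92e-06).

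Lss, which closes squalene epoxide into lanosterol, stood at 20.6, 22.1 and 19.6 CPM in WT on day 7 and at 45.9, 43.4 and 46.5 CPM on day 10. KO cells stood at 21.4, 22.3 and 18.9 CPM and then at 48.9, 38.3 and 45.4 CPM. Day 10 lay above day 7 without overlap in both genotypes, with changes of 1.12 ± 0.15 and 1.08 ± 0.15 (log2 ± SE, edgeR adjusted p 1.28e-05 and 1.99e-05). Hsd17b7, a ketoreductase of the C4 demethylation of sterols, had the smallest p of the 30 genes for day 10 against day 7 in both genotypes. In WT it stood at 8.99, 6.74 and 7.19 CPM on day 7, at 17.4, 17.8 and 18.9 CPM on day 8 and at 22.8, 20.0 and 20.8 CPM on day 10. In KO it stood at 9.02, 10.5 and 8.19 CPM on day 7, at 17.4, 17.1 and 13.9 CPM on day 8 and at 20.6, 19.2 and 19.6 CPM on day 10. Most of its rise was thus in place on day 8. The change to day 10 was 1.47 ± 0.12 in WT and 1.10 ± 0.12 in KO (log2 ± SE, edgeR adjusted p 5.16e-08 and 1.29e-06).

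Cyp51, the lanosterol demethylase, rose by 1.27 in WT and 0.96 in KO on the log2 scale, Msmo1 by 0.65 and 0.34, Nsdhl by 0.84 and 0.42, Ebp by 0.45 and 0.34, and Fdft1, the squalene synthase, by 1.02 and 0.61. The KO calls of Msmo1, Nsdhl, Ebp and Fdft1 were lost without mouse 64 (edgeR adjusted p 0.144, 0.196, 0.0844 and 0.0818), and those of Nsdhl, Ebp and Fdft1 also without mouse 68 (0.167, 0.118 and 0.0742). Ebp, the sterol isomerase, had its highest mean on day 8, with 54.3 CPM for WT and 50.4 CPM for KO. Tm7sf2, a sterol reductase, rose in WT by 0.62 and had a KO value of 0.28 that did not pass. Counts of Fdft1 and Tm7sf2 are uncertain. Fdft1 lies over Ctsb, which is on the other strand, shares 774 bases with it and had 21900% of its counts, and Tm7sf2 shares 532 bases with Vps51 on the same strand, which had 244% of its counts.

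All 3 regulators and transporters rose in WT. Srebf2 stood at 173, 172 and 180 CPM on day 7, at 231, 207 and 243 CPM on day 8 and at 296, 273 and 344 CPM on day 10 in WT. In KO the values were 181, 245 and 212 CPM on day 7 and 381, 252 and 320 CPM on day 10. The KO days came close to each other, with the highest day 7 library at 245 CPM and the lowest day 10 library at 252 CPM. The rise to day 10 was 0.80 ± 0.17 (log2 ± SE, edgeR adjusted p 0.00119) in WT and 0.58 ± 0.17 (0.0127) in KO. The KO call was lost without mouse 64 (log2 0.32, edgeR adjusted p 0.206) and without mouse 68 (0.57, 0.0725). Stard4, a sterol carrier between membranes, went from 37.1, 34.7 and 32.6 CPM to 93.3, 78.3 and 92.7 CPM in WT. In KO it went from 37.4, 48.0 and 40.4 CPM to 92.8, 61.7 and 81.4 CPM. These are changes of 1.34 ± 0.16 and 0.91 ± 0.16 (log2 ± SE, edgeR adjusted p 2.87e-06 and 1.59e-04).

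Insig1, the sterol-regulated anchor of SREBP in the endoplasmic reticulum, is itself a target of SREBP. In WT it stood at 51.8, 45.6 and 50.7 CPM on day 7, at 59.4, 59.7 and 65.2 CPM on day 8, at 66.0, 57.1 and 71.4 CPM on day 9 and at 71.3, 65.2 and 69.2 CPM on day 10. KO libraries stood at 48.5, 55.7 and 54.4 CPM on day 7, at 45.4, 43.6 and 44.7 CPM on day 8, at 44.5, 57.1 and 54.0 CPM on day 9 and at 67.2, 54.7 and 61.3 CPM on day 10. On CPM, every WT library was higher on day 8 than on day 7 and every KO library lower. How many of all genes did the same was not counted. The WT rise to day 10 was 0.47 ± 0.10 (log2 ± SE, edgeR adjusted p 6.28e-04), while the KO value was 0.21 ± 0.10 (0.0939) and did not pass.

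Of the 8 fatty acid genes 5 rose and 1 fell from day 7 to day 10 in each genotype, and both desaturases and Acss2 were lowest on day 8. Acly, which supplies cytosolic acetyl-CoA from citrate, stood at 268, 244 and 266 CPM in WT on day 7, at 370, 347 and 355 CPM on day 8 and at 374, 347 and 384 CPM on day 10. The KO values lay at 258, 269 and 271 CPM on day 7, at 363, 353 and 322 CPM on day 8 and at 369, 336 and 386 CPM on day 10. It thus rose by day 8 and its later days overlapped. The change to day 8 was 0.46 ± 0.08 in WT and 0.38 ± 0.08 in KO (log2 ± SE, edgeR adjusted p 7.66e-05 and 5.54e-04), and to day 10 it was 0.51 and 0.45.

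Fasn, the fatty acid synthase, stood at 65.2, 67.8 and 59.8 CPM in WT on day 7, at 173, 165 and 183 CPM on day 8 and at 242, 230 and 282 CPM on day 10. KO cells stood at 82.4, 100.4 and 78.3 CPM on day 7, at 177, 239 and 120 CPM on day 8 and at 327, 235 and 280 CPM on day 10. Neither later day overlapped day 7 in either genotype, and KO spread more widely than WT on day 8. The change to day 10 was 1.97 ± 0.22 in WT and 1.69 ± 0.22 in KO (log2 ± SE, edgeR adjusted p 2.06e-06 and 9.94e-06). Elovl6, which extends palmitate, rose by 2.04 and 1.77 (log2), and Acaca, which makes malonyl-CoA, by 0.71 and 0.52. Me1, a cytosolic malic enzyme that yields NADPH, had the lowest counts of the 30, at 0.775 to 2.75 CPM in all 24 libraries. It rose from day 7 to day 8 in KO by 0.88 ± 0.22 (log2 ± SE, edgeR adjusted p 0.00296), a call lost without mouse 68 (0.063).

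The stearoyl-CoA desaturases, which add the first double bond to saturated fatty acids, fell to day 8 in both genotypes. Scd1 stood at 32.9, 39.3 and 42.4 CPM in WT on day 7, at 8.98, 7.77 and 11.9 CPM on day 8, at 28.5, 17.4 and 37.5 CPM on day 9 and at 92.6, 51.5 and 103 CPM on day 10. In KO it stood at 29.3, 35.9 and 33.9 CPM, at 6.91, 9.92 and 5.79 CPM, at 6.44, 30.9 and 25.4 CPM and at 98.0, 18.05 and 79.7 CPM on the same days. Day 8 lay below day 7 without overlap in both genotypes, and WT day 10 lay above day 7. KO days 9 and 10 each held 1 low library, the one with high Ddx3y. The fall to day 8 was -1.999 ± 0.51 in WT and -2.12 ± 0.52 in KO (log2 ± SE, edgeR adjusted p 0.00345 and 0.00256). Day 10 against day 7 gave 1.11 ± 0.48 and 0.98 ± 0.48, which did not pass (edgeR adjusted p 0.0742 and 0.113). Without the KO libraries with high Ddx3y, these were 1.11 and 1.35 and passed (edgeR adjusted p 0.00134 and 0.00193). Both also passed in edgeR with no filter on low counts (adjusted p 0.0169 and 0.0398) and without mouse 67 (0.0132 and 0.00858, with KO at 1.48). The WT rise passed as well without mouse 64 (edgeR adjusted p 0.0316) and with the replicate block and exchanged KO numbers (0.00443).

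Scd2 had the highest mean per length of the 30 genes on days 7, 9 and 10, at 279 TPM in WT on day 7 and 632 TPM on day 10. On day 8 the mean of Acly was higher, at 210 against 179 TPM in WT and 213 against 158 TPM in KO. In WT it stood at 542, 583 and 600 CPM on day 7, at 321, 286 and 337 CPM on day 8, at 703, 533 and 810 CPM on day 9 and at 1109, 852 and 1251 CPM on day 10. KO libraries stood at 499, 555 and 514 CPM, at 302, 292 and 196 CPM, at 311, 654 and 671 CPM and at 1062, 499 and 1009 CPM. Day 8 was below day 7 in all libraries, and the low KO libraries of days 8, 9 and 10 were again those with high Ddx3y. It fell by 0.87 ± 0.26 in WT and by 0.99 ± 0.27 in KO to day 8 (log2 ± SE, edgeR adjusted p 0.0115 and 0.00521), and rose from day 8 to day 9 by 1.12 and 1.05. The rise to day 9 did not pass in WT without any 1 of the 3 WT mice (edgeR adjusted p 0.156 to 0.219). In KO it did not pass without mouse 63, 65, 66, 67 or 68 (edgeR adjusted p 0.0543 to 0.36), with the replicate block (0.0596) or on TPM (limma, 0.101). The WT fall did not pass without any 1 of the 3 WT mice (edgeR adjusted p 0.0674 to 0.0866) or on TPM (limma, 0.102), and the KO fall did not pass without mouse 68 (0.0548). The rise from day 7 to day 10 was 0.90 ± 0.26 in WT and 0.71 ± 0.26 in KO (edgeR adjusted p 0.0114 and 0.0391), and the KO call was lost with the replicate block (0.0546) and without mouse 64 (0.189), 68 (0.211), 63 (0.075), 65 (0.0532) or 66 (0.0617). The WT call was lost without mouse 63 (0.106) or 66 (0.109). Scd1 and Scd2 are 95.51% identical over 623 bases, so reads there could be split between them.

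Acss2, which makes acetyl-CoA from acetate, stood at 14.8, 20.7 and 16.9 CPM in WT on day 7, at 5.52, 6.43 and 5.06 CPM on day 8 and at 13.0, 12.1 and 13.3 CPM on day 10. The KO values lay at 14.3, 16.2 and 13.97 CPM, at 5.96, 5.33 and 5.28 CPM and at 11.2, 7.55 and 12.8 CPM. Day 8 lay at 32.5% of the day 7 mean in WT and at 37.3% in KO, with no overlap. The fall to day 8 was -1.62 ± 0.16 and -1.42 ± 0.16 (log2 ± SE, edgeR adjusted p 1.86e-07 and 9.41e-07). Day 10 against day 7 was -0.45 in WT and -0.49 in KO. The calls were lost on TPM (limma adjusted p 0.519 in WT and 0.385 in KO). The WT call was also lost in edgeR with no filter (adjusted p 0.0529) and without mouse 65 (-0.26, 0.343), 63 (0.0589) or 66 (0.103), and the KO call without mouse 67 (-0.24, 0.251) and without the libraries with high Ddx3y (0.107). Gss overlaps Acss2 on the other strand and had 154% of its counts.

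Dhcr7, the last reductase on the way to cholesterol, dipped in the same way. It stood at 86.2, 97.0 and 89.6 CPM in WT on day 7, at 49.4, 45.1 and 50.6 CPM on day 8, at 68.1, 72.2 and 69.2 CPM on day 9 and at 77.7, 85.4 and 85.2 CPM on day 10. KO cells stood at 75.4, 57.8 and 79.6 CPM on day 7, at 37.2, 32.7 and 41.6 CPM on day 8, at 53.3, 50.6 and 54.6 CPM on day 9 and at 57.5, 72.4 and 69.1 CPM on day 10. It fell to day 8 by 0.91 ± 0.11 in WT and by 0.93 ± 0.11 in KO (log2 ± SE, edgeR adjusted p 9.60e-07 and 8.02e-07), and rose to day 9 by 0.53 and 0.51. That rise did not pass in WT without any 1 of the 3 WT mice (edgeR adjusted p 0.112 to 0.188), nor in KO without any 1 of the mice 63, 64, 65, 66 and 68 (0.0521 to 0.0797). Day 10 against day 7 was -0.14 in WT and -0.10 in KO and did not pass (edgeR adjusted p 0.328 and 0.497).

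From one day to the next, most calls fell on the first step. From day 7 to day 8 WT had 16 genes higher and 5 lower, where 43.4% of all genes were called, 21.5% higher and 22% lower. The 5 lower genes were Acss2, Dhcr7, Scd1, Scd2 and Sc5d, the sterol desaturase before Dhcr7. KO had 9 higher and 7 lower on a background of 42%, with 21.1% higher and 20.9% lower, and its 7 were the same 5 with Tm7sf2 and Insig1. On TPM with limma the median of all genes itself moved by 0.165 in WT and 0.172 in KO over this step. There Insig1 in KO was at -0.01 (limma adjusted p 0.938), Tm7sf2 in KO at -0.22 (0.247), and Sc5d at -0.13 (0.484) in WT and -0.17 (0.347) in KO. By edgeR the WT call of Sc5d was also lost without mouse 63 (adjusted p 0.0893) or 65 (0.073), and the KO call of Tm7sf2 without mouse 67 (0.132). The TMM factors, which the TPM values do not use, ran from 0.877 to 0.886 in WT on day 7 and from 0.982 to 0.999 on day 8. In KO they ran from 0.895 to 0.969 and from 0.985 to 1.07. The cause of the shift on TPM was not tested, since that alternative changed the tool, the unit and the scaling together. Over day 10 against day 7 the same shift was 0.21 in WT and 0.249 in KO. The share of members called in KO, 53.3%, stood closer to its background than the 70% in WT. From day 8 to day 9 WT had 5 genes higher (Fdps, Dhcr7, Mvd, Acat2 and Scd2, with 5.4% of all genes called, 3.06% higher and 2.34% lower) and KO 3 (Fdps, Dhcr7 and Scd2, with 2.33%). From day 9 to day 10 WT had 2, Acss2 and Sc5d, on a background of 3.6%, with 1.18% higher and 2.42% lower, and KO had 0 by edgeR, by DESeq2 and by limma, with 13 at an unadjusted p under 0.05 and 0.0963% of all genes called. Without the KO libraries with high Ddx3y the KO counts were 12 higher and 7 lower, then 11 and then 1, with 41.7%, 7.51% and 0.783% of all genes called, and the WT counts for the later steps were 11 and 8, with 12.1% and 7.77%. The KO count from day 9 to day 10 was 17 without mouse 67, with 16 higher and Me1 lower (-0.91), where 14.2% of all genes were called. Leaving out 1 mouse gave 0 to 9 genes for WT day 9 against day 8 and 0 to 4 for WT day 10 against day 9, with 0 in both cases without any 1 of the mice 63, 65 and 66. With a replicate block in which the KO numbers were exchanged to follow Ddx3y, 14 genes were called for KO day 10 against day 9, where 5.95% of all genes were called. Any change over the 4 days was called for 28 of 30 genes in WT and 29 of 30 in KO, on backgrounds of 54.1% and 50.1%.

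**Figure D3:**
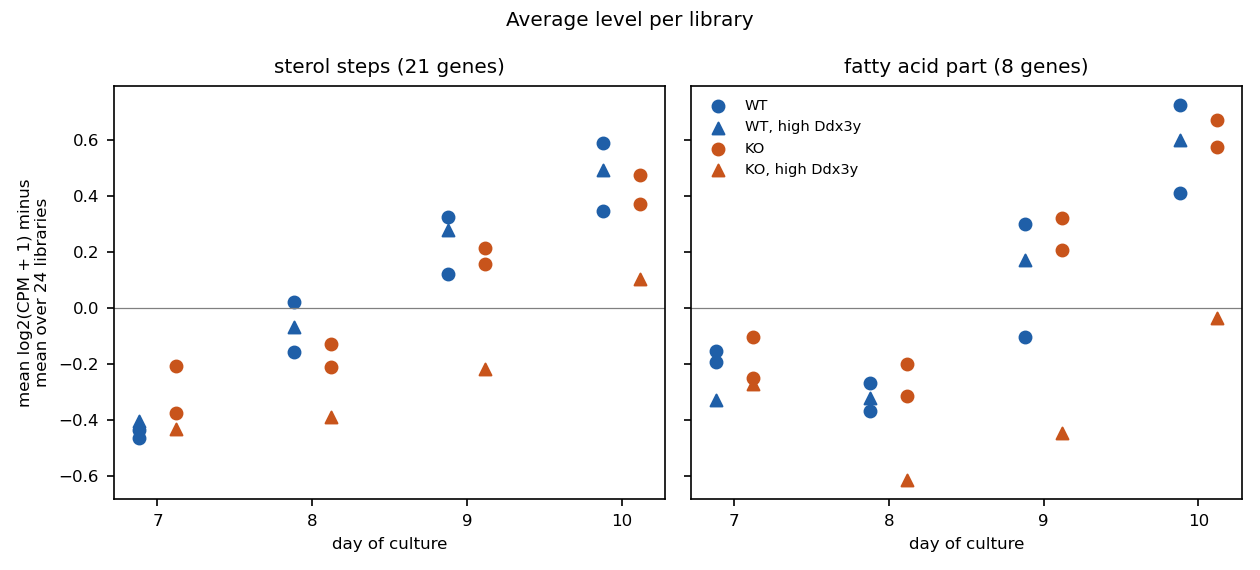
Mean over genes of log2(CPM + 1) minus the mean over the 24 libraries (vertical axes), for 21 sterol genes (all mevalonate and squalene genes, Insig1 and Stard4) and the 8 fatty acid genes, by day of culture; each point is 1 library, and triangles are libraries with high Ddx3y. The mean over sterol genes climbs each day in WT. Not all of them do: Dhcr7, Sc5d, Tm7sf2 and Hmgcs1 are lowest on day 8 there, and Ebp, Hsd17b7 and Ggps1 are highest before day 10. The mean over fatty acid genes has its lowest group mean on day 8, which Acss2, Scd1 and Scd2 share and the other 5 genes do not. The KO triangle lies at the bottom of its group on each day.

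Averaged over 21 sterol genes, the log2 deviation from the mean of all libraries in WT was -0.44 ± 0.03 (SD, n = 3) at day 7 and then -0.07 ± 0.09, 0.24 ± 0.11 and 0.48 ± 0.12. In KO it was -0.34 ± 0.12, -0.24 ± 0.13, 0.05 ± 0.24 and 0.32 ± 0.19. On day 9 the KO library with high Ddx3y was at -0.22 and the other KO libraries at 0.16 and 0.22. The same library had the lowest cycling-marker sum, at 846 CPM against 1323 and 1578 CPM, and this also held on the other days (478 against 497 and 727 CPM, 431 against 645 and 951 CPM, 924 against 1514 and 1817 CPM). The KO library with high Ddx3y also had the lowest dendritic-marker sum of its group on each day, at 5447, 6782, 7597 and 9387 CPM in day order, where the other KO libraries stood at 5757 and 5839, 7514 and 8516, 8625 and 10316, and 10314 and 11549 CPM. Its macrophage-marker sum was the highest of its group on days 8, 9 and 10, at 5195, 4108 and 3868 CPM against at most 4283, 3426 and 3093 CPM, but not on day 7, at 5641 CPM against 4521 and 5780 CPM. The part of these values in the spread of the synthesis genes was not tested. Across the 24 libraries the log levels of Cyp51 (r = 0.926), Mvk (0.899) and Elovl6 (0.889) followed Srebf2 most closely, and Me1 (-0.433), Dhcr7 (-0.158), Acss2 (-0.12) and Ggps1 (-0.00495) had negative values. Msmo1 (0.916) and Sc5d (0.884) followed Hmgcs1 most closely. These r values describe points that share libraries, days and mice.

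Between genotypes no gene of the 30 passed on any day in the edgeR test on all libraries, while Insig1 and Dhcr7 passed under some alternatives given below. By edgeR, 0 of 30 were called for KO against WT on each of the days 7, 8, 9 and 10, where 1.45%, 0.00688%, 0.00688% and 0.0138% of all genes were called. Before adjustment 2, 5, 4 and 5 genes had a p under 0.05, and DESeq2 called 0, 1, 0 and 0, where it called 4.17%, 0.117%, 0.798% and 0.296% of all genes, and limma on TPM 0 on each day. The log2 fold change was positive for 22 of 30 genes on day 7 and for 7, 6 and 5 on days 8, 9 and 10, with medians of 0.12, -0.15, -0.15 and -0.16. Without the KO libraries with high Ddx3y it was positive for 21, 13, 16 and 12, with medians of 0.17, -0.08, 0.01 and -0.04. That fit took 1 library from each KO group and kept the WT library with high Ddx3y. The compared groups thus differed in size and, by Ddx3y and Xist, in sex. In that fit 1 gene was higher (Acat2, log2 0.48, edgeR adjusted p 0.0454) and 1 lower (Dhcr7) on day 7, 0 higher and 2 lower (Insig1 and Dhcr7) on day 8, and 0 on days 9 and 10, where 5.67%, 1.93%, 0.585% and 0.0204% of all genes were called. On day 7, 7 genes were higher in KO without overlap and 3 lower, where 11.9% of all genes were higher and 14.2% lower in that way. On days 8, 9 and 10, 0 were higher (4.4%, 7.62% and 5.47% of all genes), and 6, 4 and 2 were lower (4.99%, 6.47% and 4.97% of all genes). The 6 of day 8 were Dhcr7, Sc5d, Insig1, Msmo1, Sqle and Hsd17b7, the 4 of day 9 were the first 4 of these, and the 2 of day 10 were Dhcr7 and Sc5d.

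**Figure D4:**
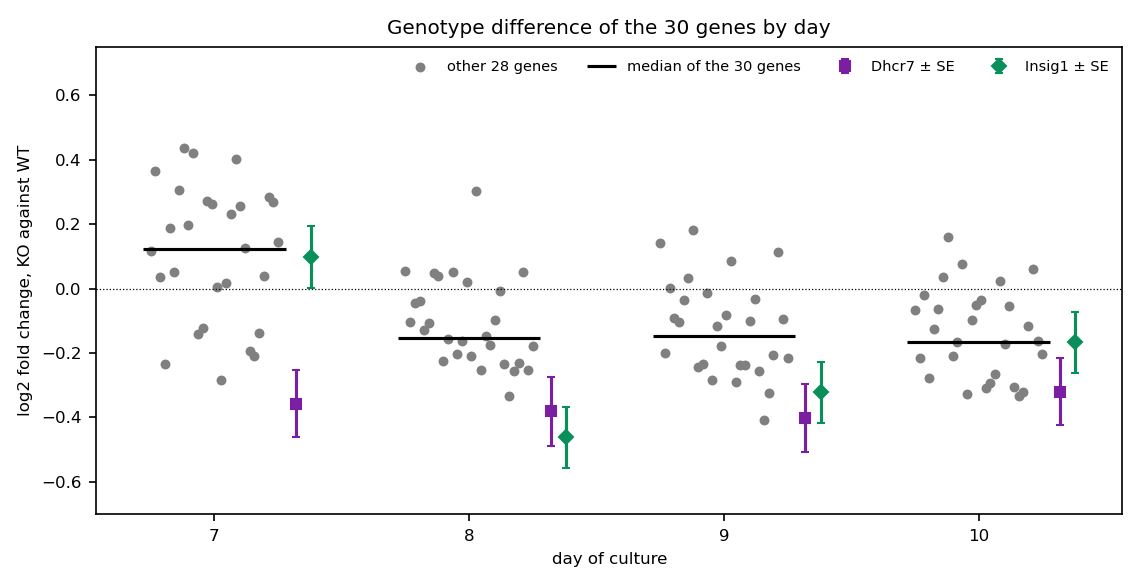
Log2 fold change of KO against WT (vertical axis) for the 30 genes by day of culture; grey points are 28 genes, the square is Dhcr7 and the diamond Insig1 with SE bars, and black lines are medians of the 30 genes. The median is 0.12 on day 7 and -0.15 to -0.16 later, and Dhcr7 lies at -0.32 to -0.40 on all 4 days.

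On CPM, Dhcr7 and Sc5d were lower in every KO library than in every WT library of the same day, on all 4 days. On TPM this held for Dhcr7 on all 4 days and for Sc5d on day 7 alone, since its highest KO library stood at 28.2, 35.5 and 49.2 TPM on days 8, 9 and 10 and its lowest WT library at 26.9, 32.2 and 44.1 TPM. The groups of Sc5d also came close on CPM: the lowest WT and highest KO library stood at 56.0 and 52.7 CPM on day 7, 41.9 and 41.1 CPM on day 8, 49.70 and 49.53 CPM on day 9, and 66.4 and 65.3 CPM on day 10. Its log2 fold changes were -0.19, -0.23, -0.25 and -0.31 (SE 0.10), with edgeR adjusted p of 0.373, 0.787, 0.494 and 0.431, and it passed under no alternative run. For Dhcr7 the log2 fold changes were -0.36, -0.38, -0.40 and -0.32 (SE 0.10 to 0.11), with edgeR adjusted p of 0.0915, 0.492, 0.217 and 0.403. Both were singled out after their values were seen, and the same numbered mice enter all 4 days. The share of all genes lower in KO without overlap on all 4 days was not counted. Without the KO libraries with high Ddx3y Dhcr7 passed on days 7 and 8 (-0.40 and -0.46, edgeR adjusted p 0.046 and 0.0491), and without mouse 67 on day 10 (-0.38, 0.0466). Over all alternatives its adjusted p ran from 0.046 to 0.415 on day 7 and from 0.0491 to 1 on day 8. Without mouse 67 its value on day 7 was -0.21 (edgeR adjusted p 0.31).

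Insig1 also lay apart on day 8, where WT ran from 59.4 to 65.2 CPM and KO from 43.6 to 45.4 CPM. The difference was -0.46 ± 0.10 (log2 ± SE, edgeR adjusted p 0.224), and it was -0.32 ± 0.10 on day 9 (0.261) and -0.17 ± 0.09 on day 10 (0.738). On day 8 it passed with DESeq2 (adjusted p 0.0131), in edgeR with no filter on low counts (0.0443) and without the KO libraries with high Ddx3y (0.0137). Over all alternatives the adjusted p on day 8 ran from 0.0131 to 0.987. The change from day 7 to day 8 was 0.31 ± 0.10 in WT and -0.25 ± 0.10 in KO (log2 ± SE, edgeR adjusted p 0.0115 and 0.0447). The WT call was lost without mouse 65 (0.0546) or 66 (0.0617), and the KO call without mouse 67 (-0.18, 0.212) or 68 (-0.22, 0.194), without any 1 of the WT mice 63, 65 and 66, and with no filter (0.101). The interaction, KO change minus WT change, was -0.56 ± 0.14 with an edgeR adjusted p of 0.315, and it passed with DESeq2 (-0.57, adjusted p 0.0495) and in edgeR with the replicate block and exchanged KO numbers (-0.56, adjusted p 0.0121).

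The difference of the day courses was tested as an interaction. For day 8 against day 7 it was called for 0 of 30 genes by edgeR, which called 0.0275% of all genes, and for 1 by DESeq2, which called 0.196%, and 4 genes had an unadjusted p under 0.05. For day 10 against day 7 it was called for 0 by edgeR and by DESeq2, which called 0.0619% and 0.311% of all genes, and 5 genes had an unadjusted p under 0.05. With the replicate block and exchanged KO numbers, edgeR called Insig1 and Stard4 (-0.53, adjusted p 0.0457) for the first, where 0.537% of all genes were called, and Mvd (-0.49, 0.0268) and Acat2 (-0.59, 0.0284) for the second, where 1.79% were. Any difference of course over the 4 days was called for 0 of 30, with 2 at an unadjusted p under 0.05 and 0.0344% of all genes called, and for Insig1 alone with that block (edgeR adjusted p 0.0267, 0.729% of all genes called). The fitted interaction was above 0, a change more positive in KO than in WT, for 3 of 30 genes to day 8 and for 2 of 30 to day 10, with medians of -0.25 and -0.24 on the log2 scale. Without the KO libraries with high Ddx3y it was above 0 for 7 of 30 genes in each case, with medians of -0.20 and -0.20. Most of these genes vary together across libraries, so their number is no count of independent results.

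Other genes around the pathway were read from lists, whose counts stand against the 18.9% higher and 18.1% lower of all genes in WT and 19.7% and 17.1% in KO for day 10 against day 7. Of 24 tested genes of sterol sensing, transport and late sterol steps, 9 rose and 6 fell in WT from day 7 to day 10, and 5 rose and 6 fell in KO. Their median log2 fold change was -0.03 in WT, close to the -0.02 of all genes. Mylip, a ubiquitin ligase that is a target of the sterol receptor LXR, fell by 0.98 in WT and by 1.25 in KO. Npc2, which exports cholesterol from lysosomes, fell by 0.83 and 0.84. Of the genes that rose, Srebf1, which encodes SREBP-1 and was named after its values were seen, rose by 0.59 in WT and 0.37 in KO.

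Of 24 tested genes of further fatty acid steps, 9 rose and 3 fell in WT, and 11 rose and 2 fell in KO. Aacs, which activates acetoacetate for lipid synthesis, rose from 34.1 ± 0.784 to 74.6 ± 9.10 CPM (SD, n = 3) in WT, by 1.13 ± 0.12 (log2 ± SE, edgeR adjusted p 7.17e-07), and by 0.78 in KO. Acsl5, an acyl-CoA synthetase, rose by 0.55 in WT and 0.56 in KO. Pgd, which yields NADPH in the pentose phosphate pathway, fell by 0.57 and 0.60. On day 7, 2 genes of this list, Elovl7 and Acsl4, were lower in KO than in WT, by -0.45 and -0.58 (log2, edgeR adjusted p 0.0257 each). In that comparison 1.45% of all genes were called, with 0.619% lower. Over all genes it had 211 calls by edgeR, and 40, 21 and 11 without mouse 63, 65 or 66. Whether these calls of Elovl7 and Acsl4 held there is not reported here. Acsl4, which activates arachidonate, stood at 110 to 137 CPM in KO and 176 to 197 CPM in WT on that day. Both were named after their values were seen.

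Of 14 tested genes of the isoprenoid branches, which lead to ubiquinone, dolichol and prenylated proteins, 3 rose and 2 fell in WT and 3 rose in KO. Of all genes 37% were called in WT and 36.8% in KO, and the median log2 fold change of this list was -0.03 in WT and 0.07 in KO. Pdss1, of the ubiquinone side chain, rose by 0.74 in WT and 1.03 in KO. Trit1, which adds an isopentenyl group to transfer RNA, rose by 0.50 and 0.64. Nus1, a subunit of the dolichol-forming transferase, fell by 0.36 in WT, and its KO value was -0.27 (edgeR adjusted p 0.0582).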

How the data were processed

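RNA-seq of 24 libraries (8 groups of 3 mice) was analysed from the authors' files. Per the labels' protocols, poly(A) RNA was sequenced paired-end with stranded kits. Per the submitters' processing notes, FastQC 0.11.9, STAR 2.6.1 and DESeq2 1.22.2 were used with build mm10, and their roles, the counter and its strand setting are not given in the sources used here. The authors deposited raw counts per gene and TPM values. The members and lists were chosen with earlier results of these data known.

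Counts were fitted with edgeR 4.0.16 (R 4.3.3; quasi-likelihood test, TMM scaling, filterByExpr, 1 mean per group, 16 residual degrees of freedom), with Benjamini-Hochberg adjustment over 14535 genes and a threshold of 0.05. CPM values use the TMM factors. Values per library are given for the genes with the smallest p among those called (up to 8 for WT and 6 for KO day 10 against day 7, 4 per genotype for day 8 against day 7) and for Srebf2, Insig1, Hmgcs1, Sqle, Fasn, Scd1 and Scd2, with up to 3 genes from each further list by WT day 10 against day 7. Values of some genes of these lists are not reported here. Alternatives were DESeq2 1.42.0, no filter or a mean count of at least 50, limma 3.58.1 on log2(TPM + 1), the mouse as replicate block, and each mouse number left out. By Ddx3y, a KO number did not stand for the same animal on every day. Leaving out the KO libraries with high Ddx3y was added after seeing the data. The block with exchanged KO numbers was likewise set from Ddx3y in these data. Scripts were tested on simulated counts.

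The pairing comes from the labels, which give the same mouse numbers on each day. Over 10665 autosomal genes the deviations of same-numbered libraries correlated at a mean r of 0.275 in WT (16 of 18 pairs above 0.1) and of 0.0187 in KO (9 of 18). Libraries of a group differed beyond sampling noise (chi-square per degree of freedom of at least 7.1). Intervals of counting were not needed, since errors come from replicates. The p-values of the main fit measure the pooled spread between libraries of a group. That fit treats libraries of different days as independent, although same-numbered WT libraries correlated.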

Additional observations from a re-analysis of the deposited data

Results flagged for a closer look

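On CPM, Insig1 moved in opposite directions from day 7 to day 8. All 3 WT libraries of day 8 lay above all WT libraries of day 7, and all 3 KO libraries of day 8 lay below all KO libraries of day 7. The share of all genes with opposite moves of this kind was not counted. On TPM the WT days stayed apart, while the KO days overlapped, at 43.0 to 52.1 TPM on day 7 and 43.8 to 48.9 TPM on day 8. The difference of the log2 changes, KO minus WT, was -0.56, and by edgeR's interaction test its adjusted p was 0.315. Over the alternatives the difference ran from -0.65 to -0.51 and its adjusted p from 0.0121 to 1. On TPM with limma, an alternative that changes tool, unit and scaling together, the KO change was -0.01.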

How the results depend on the processing

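Counts of synthesis genes called from day 7 to 8 in both genotypes and from day 7 to 10 in WT stayed within 1.5 times their value under every alternative run. From day 7 to 10 in KO, 23 genes were called, and leaving out 1 mouse number gave 14 to 27. A KO number left out was not the same animal on every day. The smaller counts moved more. For WT day 9 against day 8 (5 genes) DESeq2 gave 8, TPM 3, leaving out the KO libraries with high Ddx3y 11 and leaving out 1 mouse 0 to 9. For WT day 10 against day 9 (2) DESeq2 and no filter gave 4 each, TPM 0, the replicate block 1, the high Ddx3y exclusion 8 and 1 mouse left out 0 to 4. For KO day 9 against day 8 (3) these were 5 with DESeq2, 7 with no filter, 11 with the exclusion and 0 to 4. For KO day 10 against day 9 (0) no filter and the exclusion gave 1 each, and 1 mouse left out 0 to 17. For KO against WT (0 each day) the exclusion gave 2 on days 7 and 8, DESeq2 and no filter 1 on day 8, and 1 mouse left out 0 to 1 on day 10. The day 8 interaction (0) was 1 with DESeq2. The cause was not tested.

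The replicate block with the mouse number ended the calls of Scd2 and Pmvk for KO day 10 against day 7 (adjusted p 0.0546 and 0.055), Scd2 for KO day 9 against day 8 (0.0596), Sc5d for WT day 10 against day 9 (0.0501) and Msmo1 for WT day 8 against day 7 (0.0606), and no other of the 115 single-gene values. Since Ddx3y crossed the KO numbers, a block with exchanged KO numbers was also run. The exchange was set from Ddx3y in these data and placed only the KO library with high Ddx3y. The numbers of the other KO libraries were not checked. This block gave a mean r of 0.473 between KO pairs. It called 14 genes for WT day 9 against day 8, 15 for WT day 10 against day 9, 17 for KO day 9 against day 8 and 14 for KO day 10 against day 9, where 16.6%, 13%, 13.2% and 5.95% of all genes were called, and 2 for each interaction and 1 for any difference of course. Msmo1 for KO against WT on day 7 (0.02) reversed to -0.011 without mouse 66, and leaving out 1 mouse gave -0.011 to 0.091. The low counts of Me1 and Fdps limit their precision.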
